A study of Mus musculus with 6 samples.

Results

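The 10 chemokine ligand genes Ccl2, Ccl3, Ccl4, Ccl5, Ccl7, Ccl9, Ccl12, Cxcl2, Cxcl10 and Cxcl16 were followed in bone marrow–derived macrophages (BMDMs). They were taken as a named list of ligands that macrophages make, out of 36137 genes to which the deposited transcripts could be assigned, and all 10 passed the filter of at least 10 counts that left 18506 genes for testing. WT cells came from LysM-Cre+/- Drp1+/+ mice and Drp1 KO cells from LysM-Cre+/- Drp1 fl/fl mice, so that both groups carried Cre, which the lysozyme M promoter drives in myeloid cells. The mice were 8 to 12 weeks of age and of both sexes by the study's general statement. Marrow of 2 mice per genotype was pooled according to the culture methods, and whether each library had its own pool is not stated, although the labels call the 3 libraries of each group biological replicates. After 7 days of differentiation the cells were kept for 8 hours in serum-free medium at low oxygen (hypoxia and serum starvation, HSS), the study's culture model of ischemia, and no library of untreated cells was analysed here.

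Chemokines are small secreted proteins that bind G protein–coupled receptors on leukocytes and direct their migration. In the CC ligands the first conserved cysteines are adjacent, and in the CXC ligands another residue lies between them. In macrophages many of these genes are transcribed on signals that act through NF-kB or through interferon-activated STAT and IRF factors, and others are transcribed without a stimulus.

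The question put to these data was whether the RNA of the ligands differed after HSS between BMDMs of the 2 genotypes. Of the 10 ligands, 3 rose in Drp1 KO cells (Ccl5, Ccl7 and Ccl9) and 0 fell at an adjusted p under 0.05 (edgeR quasi-likelihood test, Benjamini-Hochberg adjustment over 18506 genes). Over all genes tested, 2.29% were higher at that threshold. At an unadjusted p under 0.05, 6 were higher and 0 lower, as by DESeq2 and limma-voom, which called 4 and 3 at an adjusted p under 0.05, all higher. The number called changed when a library was left out. It was 0 without WT library 2 or 3 or Drp1 KO library 2, and 1 (Ccl5) without Drp1 KO library 3. It was 3 without Drp1 KO library 1 and 5 without WT library 1. Such fits have fewer samples, and their calls over all genes ran from 181 to 904, against 621 with all 6 libraries. By its fitted fold change Ccl7 was 2.98-fold, Ccl5 2.47-fold and Ccl9 1.67-fold higher in Drp1 KO. Ccl5 also stands in a list of proinflammatory genes that the study drew from the same libraries, as does Cxcl10, so their direction is not independent of that choice. When libraries of the same number were paired, as described with the processing, 6 ligands rose (Ccl2, Ccl12 and Cxcl10 in addition) against 6.73% of all genes. The study's own criteria, a log2 fold change over 0.32 in size with an unadjusted p under 0.05, took the same 6 against 7.19% of genes. The median log2 fold change of the 10 ligands was 0.85, and that of all genes tested was 0.0046. In RNA from whole cultures, a change in the number of cells of a type and a change in RNA per cell cannot be told apart.

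The promoters of the 3 ligands that rose and of Cxcl10 are printed to show the letters upstream of genes that rose, in the case of Cxcl10 with pairing alone. Those of Ccl2 and Ccl12, which also rose with pairing, are not printed. Each printed promoter is the 250 bases before the annotated start of the canonical transcript, 5′ to 3′ on the gene's own strand, read from the GRCm39 genome. Capitals mark matches to an ISRE-type repeat (GAAANNGAAA, the kind of element that interferon-activated factors bind) or to the NF-kB consensus, searched on both strands. They lie at chr11:83421346-83421595 (minus strand, Ccl5), chr11:81936282-81936531 (plus strand, Ccl7), chr11:83469468-83469717 (minus strand, Ccl9) and chr5:92496749-92496998 (minus strand, Cxcl10, inside the longer gene Art3 on the other strand).
Ccl5: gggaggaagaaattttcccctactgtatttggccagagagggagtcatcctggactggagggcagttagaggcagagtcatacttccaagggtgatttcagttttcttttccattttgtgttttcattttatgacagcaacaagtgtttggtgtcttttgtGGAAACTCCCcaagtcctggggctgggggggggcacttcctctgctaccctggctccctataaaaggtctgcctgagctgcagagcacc
Ccl7: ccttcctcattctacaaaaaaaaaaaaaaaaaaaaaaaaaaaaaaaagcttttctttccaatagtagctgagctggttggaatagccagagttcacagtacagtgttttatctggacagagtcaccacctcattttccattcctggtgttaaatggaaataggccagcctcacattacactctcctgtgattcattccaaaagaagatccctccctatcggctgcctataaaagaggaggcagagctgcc
Ccl9: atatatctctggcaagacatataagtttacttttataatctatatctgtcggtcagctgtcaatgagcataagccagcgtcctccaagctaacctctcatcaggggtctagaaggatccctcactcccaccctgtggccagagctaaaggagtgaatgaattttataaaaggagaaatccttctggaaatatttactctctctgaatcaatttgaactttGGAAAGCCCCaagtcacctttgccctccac
Cxcl10: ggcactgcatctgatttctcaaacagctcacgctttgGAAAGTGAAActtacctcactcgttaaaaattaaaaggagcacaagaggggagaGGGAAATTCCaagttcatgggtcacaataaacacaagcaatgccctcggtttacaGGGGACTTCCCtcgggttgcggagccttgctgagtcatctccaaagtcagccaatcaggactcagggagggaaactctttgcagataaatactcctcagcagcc

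Among these 4 promoters only that of Cxcl10 held the ISRE-type repeat, at bases -213 to -204 from the start. It was the only one of the 10 ligand promoters with it, and 3.34% of 21603 protein-coding promoters of the same length held a match. The NF-kB consensus was found in 4 of the 10, those of Ccl5 (-89 to -80), Ccl9 (-30 to -21), Cxcl2 and Cxcl10, against 7.68% of all promoters. Cxcl10 had 3 such matches, of which the pair nearest to the start overlap by all but a single base. The GAS letters TTCNNNGAA were found in the promoters of Ccl2 and Ccl12, at -151 to -143 and -236 to -228, and in 7.39% of all promoters. The window of Ccl7, which rose most, matched none of the searched letters, and a match or its absence describes these windows only and not the binding of any factor.

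Ccl2 (MCP-1), Ccl7 (MCP-3) and Ccl12 (MCP-5) are ligands of CCR2, the receptor that draws inflammatory monocytes into tissue, and all were scarce in both groups. Ccl7 had 0.776, 0.562 and 0.511 CPM (counts per 1000000 of the TMM-scaled library size) in WT libraries 1 to 3 and 1.86, 1.89 and 1.75 CPM in Drp1 KO libraries 1 to 3. The lowest Drp1 KO library was above the highest WT library, and each group was tight. Its log2 fold change was 1.58 ± 0.30 (SE, n = 3 per group, edgeR adjusted p = 0.0208). The 3 WT libraries together held 48 reads of Ccl7 and the 3 Drp1 KO libraries 160, and the ratio of these totals, each divided by the summed TMM-scaled sizes of the group's libraries, was 3.02 with a 95% interval of 2.18 to 4.27 (exact binomial, counting error only). Ccl7 lost its call when WT library 2 or 3 or Drp1 KO library 2 or 3 was left out, with adjusted p-values of 0.116, 0.115, 0.0933 and 0.0626, while its log2 fold change stayed between 1.44 and 1.76 with any library left out.

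Ccl2 was at 2.20, 1.35 and 1.16 CPM in WT and at 3.09, 3.15 and 2.91 CPM in Drp1 KO libraries. The groups did not overlap, with WT library 1 nearest to the Drp1 KO libraries. Its log2 fold change of 0.97 ± 0.27 did not pass (edgeR adjusted p = 0.0929), but passed with libraries paired by number (1.0 ± 0.22, adjusted p = 0.0155), by DESeq2 (adjusted p = 0.0341) and without WT library 1 (1.28, adjusted p = 0.0213). Ccl12 was the most uneven of the CCR2 ligands. It stood at 1.98, 0.862 and 0.409 CPM in WT libraries 1 to 3 and at 2.18, 3.24 and 2.58 CPM in Drp1 KO libraries 1 to 3. WT library 1 came close to the lowest Drp1 KO library, and WT library 3 was the lowest. The log2 fold change was 1.33 ± 0.45 (edgeR adjusted p = 0.165), and 1.45 ± 0.38 with pairing (adjusted p = 0.0333). Without WT library 1, Ccl12 reached 2.08 (adjusted p = 0.0153), its largest value in any setting.

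Ccl3 (MIP-1α), Ccl4 (MIP-1β) and Ccl5 (RANTES) draw monocytes and T cells, and Ccl3 and Ccl5 signal through CCR1 among other receptors. Only Ccl5 rose. It had 3.32, 2.77 and 1.70 CPM in WT libraries and 6.58, 7.21 and 5.40 CPM in Drp1 KO libraries. Every Drp1 KO library was above every WT library. The log2 fold change was 1.31 ± 0.25 (n = 3 per group, edgeR adjusted p = 0.0203). The call was lost when WT library 2 (adjusted p = 0.0981) or 3 (0.0685) or the Drp1 KO library 2 (0.101) was left out, with log2 fold changes between 1.06 and 1.52 over the 6 fits that leave out a library.

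Ccl3 was at 28.1, 16.1 and 11.6 CPM in WT and at 25.8, 31.7 and 16.4 CPM in Drp1 KO libraries. The groups overlapped widely, the SD within each being larger than the difference between the means of 18.6 ± 8.55 and 24.7 ± 7.70 CPM (SD, n = 3). Its log2 fold change was 0.41 ± 0.31 (edgeR adjusted p = 0.590), and with 1 library left out it ran from 0.14, without WT library 3, to 0.83, without WT library 1. Ccl4 was at 7.37, 4.87 and 3.71 CPM in WT and at 6.58, 5.47 and 5.0 CPM in Drp1 KO libraries, and all 3 Drp1 KO values lay inside the WT range. Its log2 fold change was 0.10 ± 0.24 (adjusted p = 0.917) and turned to -0.12 without WT library 3 and to -0.03 without Drp1 KO library 1. That Ccl5 changed more than Ccl3 or Ccl4 was not tested.

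Ccl9 (MIP-1γ), a ligand of CCR1 that mouse macrophages make without a stimulus, had by far the most counts of the ligands that rose. It was at 289, 261 and 233 CPM in WT libraries 1 to 3 and at 353, 397 and 558 CPM in Drp1 KO libraries 1 to 3. The groups did not overlap, and Drp1 KO library 3 stood above the others. The mean was 261 ± 28.1 CPM in the WT and 436 ± 108 CPM in the Drp1 KO (SD, n = 3), and the log2 fold change was 0.74 ± 0.16 (edgeR adjusted p = 0.0368). Without Drp1 KO library 3 it was 0.53 (adjusted p = 0.0689), and leaving out WT library 2 (0.188) or 3 (0.189) or the Drp1 KO library 2 (0.0933) also ended the call.

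Most counts of Ccl9 lay on its coding transcript, with 5162, 5172 and 5037 estimated counts in WT and 5603, 9331 and 12905 in Drp1 KO libraries. A short transcript of the gene with no defined coding sequence held 1533 to 1802 in the WT and 2174 to 5282 in the Drp1 KO libraries. Both transcripts were higher in every Drp1 KO library than in any WT library, in estimated counts and in TPM. With protein-coding transcripts alone, an alternative added after these values were seen, Ccl9 had a log2 fold change of 0.67 ± 0.17 and did not pass (edgeR adjusted p = 0.0591).

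Cxcl10 (IP-10), an interferon-induced ligand of CXCR3 on activated T cells and NK cells, was at 1.72, 2.70 and 0.579 CPM in WT libraries and at 3.27, 3.82 and 2.91 CPM in Drp1 KO libraries. The groups did not overlap, but WT libraries 2 and 3 lay further apart than WT library 2 and the lowest Drp1 KO library. The log2 fold change was 1.01 ± 0.42 and did not pass (edgeR adjusted p = 0.265), while with pairing it was 1.1 ± 0.29 (adjusted p = 0.0318). Left-out libraries moved it between 0.58, without WT library 3, and 1.54, without WT library 2, and of 15 other settings pairing was the only one that gave Cxcl10 an adjusted p under 0.05. Of the 31-base words of its main transcript, 9.62% also occur in transcripts of Art3, which was itself at 0.0431 to 0.153 CPM.

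Cxcl2 (MIP-2), a ligand of CXCR2 that draws neutrophils, was at 5.86, 5.81 and 4.05 CPM in WT and at 6.58, 3.94 and 4.60 CPM in Drp1 KO libraries. The highest and the lowest of the 6 values both came from Drp1 KO libraries. Its log2 fold change was -0.06 ± 0.23 (edgeR adjusted p = 0.948), and with 1 library left out it ran from -0.30 to 0.09. Its main transcript shares 7.40% of its 31-base words with Cxcl3, a close paralog at 0.215 to 0.681 CPM.

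Cxcl16 is made as a membrane protein, released by ADAM10 and ADAM17, and binds CXCR6. It was at 216, 229 and 184 CPM in WT and at 212, 160 and 174 CPM in Drp1 KO libraries, the only ligand that was lower in Drp1 KO in each of the 3 numbered pairs. The groups overlapped, and the log2 fold change of -0.20 ± 0.13 did not pass (edgeR adjusted p = 0.490). It ran from -0.34, without Drp1 KO library 1, to -0.11, without Drp1 KO library 2, and was -0.37 with protein-coding transcripts alone, and it passed in none of these fits. Its counts are uncertain, because the gene overlaps Med11 and Zmynd15, which lie on the other strand, and 88.9% of the 31-base words of its coding transcript also occur in transcripts of those genes when read in either orientation. Med11 was at 7.61 to 10.4 CPM and Zmynd15 at 2.11 to 4.76 CPM, and whether the authors' quantification used the strand is not given in the sources used here.

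**Figure D1:**
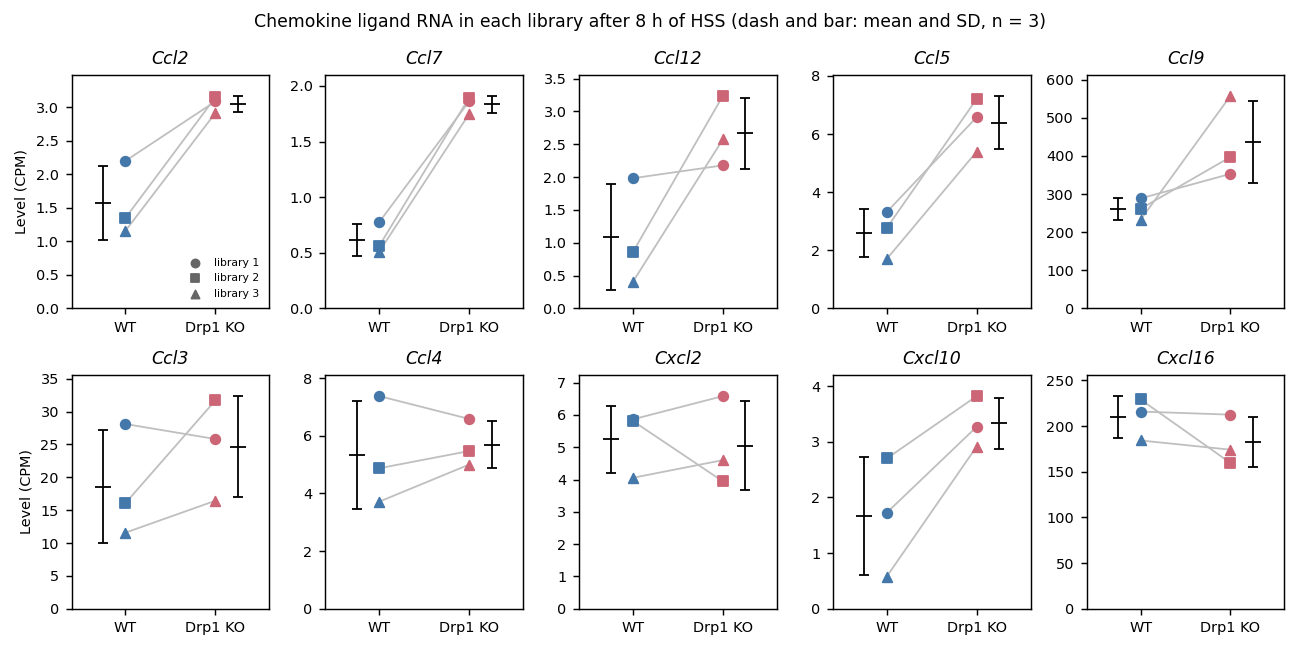
Each panel shows 1 ligand, with its level in CPM (linear axis from 0) in the 3 WT (blue) and 3 Drp1 KO (red) libraries, a grey line joining libraries of the same number, and a dash with a bar for the mean and SD of each group (n = 3). Ccl2, Ccl7, Ccl12, Ccl5, Ccl9 and Cxcl10 had every Drp1 KO library above every WT library, and Ccl3, Ccl4, Cxcl2 and Cxcl16 overlapped.

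Over the list, every Drp1 KO library was above every WT library in 6 of the 10 ligands, and in 11.7% of all genes tested. The numbered pairs of these 6 were not alike in the size of the difference. The log2 ratio of Ccl12 was 0.14 in pair 1, 1.91 in pair 2 and 2.66 in pair 3, that of Ccl9 was 0.29, 0.60 and 1.26, and that of Cxcl10 was 0.92, 0.50 and 2.33. Among these 6 ligands the pairs differed least for Ccl7, with 1.26, 1.75 and 1.77, and next for Ccl5, with 0.99, 1.38 and 1.66.

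Part of this spread lay in the WT group. WT library 3 was the lowest of the 3 WT libraries in all 10 ligands, whereas over all genes tested it was the lowest in 28.2%. WT library 1 was the highest WT library in 8 of the 10 (38.9% over all genes). In the Drp1 KO group no library took such a place, with library 3 lowest in 6 and library 2 highest in 6 of the ligands. What sets WT library 3 apart in these genes was not tested. Without it 0 ligands passed at an adjusted p under 0.05 (edgeR), as without WT library 2 or Drp1 KO library 2 (4 or 5 were higher at an unadjusted p under 0.05 in these fits), and without WT library 1 the number was 5 (Ccl2, Ccl5, Ccl7, Ccl9 and Ccl12). The fits that leave out a library have fewer samples, and over all genes they gave 181 to 904 calls against 621 with all 6 libraries.

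**Figure D2:**
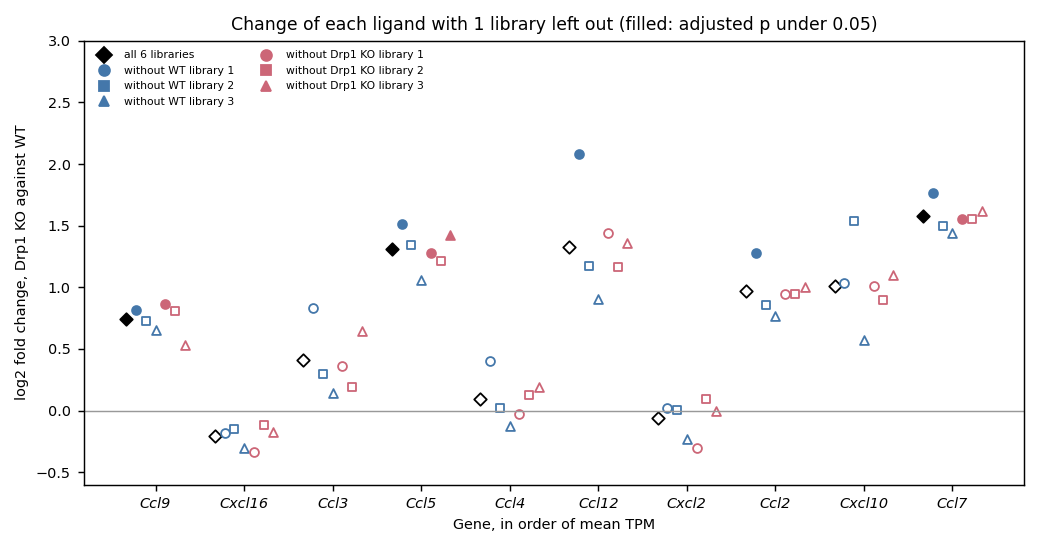
The y axis is the log2 fold change of Drp1 KO against WT for each ligand with all 6 libraries (black diamond) and with 1 WT (blue) or 1 Drp1 KO (red) library left out; filled symbols had an adjusted p under 0.05. Ccl5, Ccl7, Ccl9, Ccl2, Ccl12 and Cxcl10 stayed above 0 in every fit, and Ccl4 and Cxcl2 crossed it.

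Levels were compared between genes on the TPM scale, which corrects for transcript length. Ccl9 was the most abundant ligand, with 563 to 606 TPM in the WT and 765 to 1355 TPM in the Drp1 KO libraries. Cxcl16 followed with 157 to 232 TPM over all 6 libraries and Ccl3 with 30.1 to 74.4 TPM, and the ranges of these 3 ligands did not touch. Below them each gene overlapped its neighbour. In order of the mean TPM over all 6 libraries they were Ccl5 (7.55 to 28.1), Ccl4 (11.7 to 21.6), Ccl12 (2.18 to 14.9), Cxcl2 (6.01 to 9.87), Ccl2 (3.28 to 7.94), Cxcl10 (0.845 to 5.56) and Ccl7 (1.44 to 4.76). The neighbours Ccl5 and Ccl4 changed places between the groups, since Ccl4 was above Ccl5 in the 3 WT libraries (means of 16.0 and 10.9 TPM) and below it in the 3 Drp1 KO libraries (15.9 and 24.6 TPM). The means of Ccl12 and Cxcl2 changed places too, at 5.48 ± 3.93 and 8.63 ± 1.48 TPM in WT and 12.1 ± 2.86 and 7.73 ± 1.96 TPM in Drp1 KO libraries (SD, n = 3).

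The upper part of this order rests on how reads were split between transcripts. The short transcript of Ccl9 carried 458 to 1132 TPM, against 105 to 224 TPM for the coding transcript, and most of the TPM of Cxcl16 lay on a transcript annotated for nonsense-mediated decay. With protein-coding transcripts alone Ccl9 had a mean of 113 TPM in the WT and 170 TPM in the Drp1 KO and was still first, but Cxcl16 (35.8 and 26.3 TPM) came after Ccl3 (45.8 and 57.4 TPM). Ccl9 made up 62.8% to 67.7% of the summed TPM of the 10 ligands of the WT libraries and 69.9% to 82.2% of that of the Drp1 KO libraries. On protein-coding transcripts alone these shares were 42.3% to 52.7% and 44.0% to 62.4%, which overlap. The 8 ligands other than Ccl9 and Cxcl16 together held 64.1 to 132.6 TPM in the WT and 111.9 to 157.3 TPM in the Drp1 KO libraries.

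**Figure D3:**
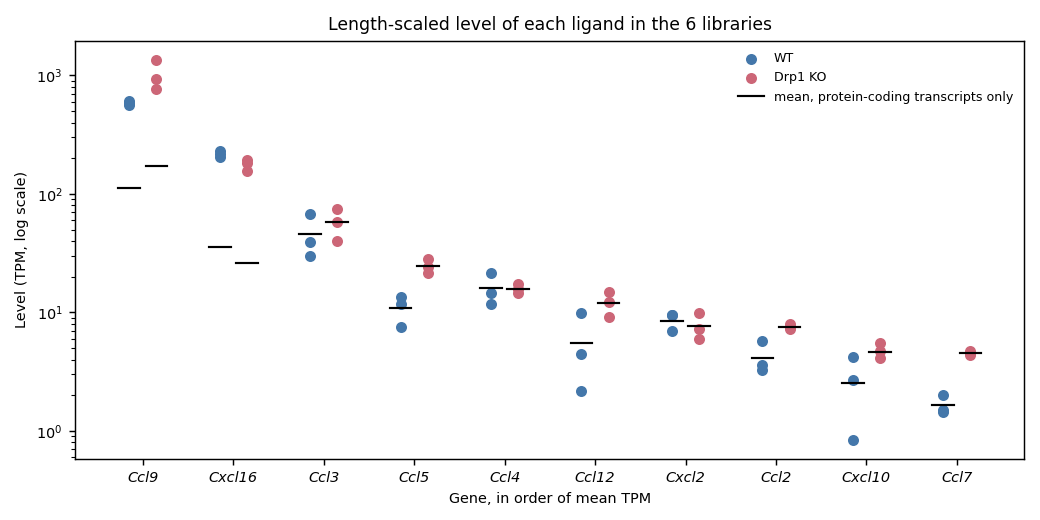
The y axis is the level in TPM on a log scale, with a point for each WT (blue) and Drp1 KO (red) library and a black line for the group mean over protein-coding transcripts only. Ccl9 lay at 563 to 1355 TPM, and the 7 ligands from Ccl5 to Ccl7 lay under 30 TPM with overlapping ranges.

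On chromosome 11 (GRCm39) 7 of the 10 ligands lie in 2 clusters. The first holds Ccl2 (chr11:81926397-81928279), Ccl7 (chr11:81936532-81938351), Ccl12 (chr11:81992645-81994466) and Ccl8 (chr11:82006007-82007625), another monocyte chemoattractant (MCP-2) outside the list, and all 4 had log2 fold changes between 0.97 and 1.58. Ccl8 rose in its own right, from 2.59, 1.39 and 1.02 CPM in WT to 5.04, 5.50 and 4.02 CPM in Drp1 KO libraries (log2 fold change 1.56 ± 0.32, edgeR adjusted p = 0.0263). Its call was lost when WT library 2 (adjusted p = 0.152) or 3 (0.106) or the Drp1 KO library 2 (0.130) was left out. Ccl11 and Ccl1 of the same cluster were below the filter.

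The second cluster, 1490 kb beyond Ccl2, was mixed. In their order along the chromosome, Ccl5 (chr11:83416602-83425942) had 1.31 ± 0.25, Ccl9 (chr11:83463745-83473161) 0.74 ± 0.16, Ccl6 0.19 ± 0.21, Ccl3 (chr11:83538670-83540191) 0.41 ± 0.31 and Ccl4 (chr11:83553383-83555509) 0.10 ± 0.24 as log2 fold change ± SE. Ccl6, the neighbour of Ccl9 and the most abundant ligand outside the list, was at 446, 277 and 254 CPM in WT and at 462, 340 and 312 CPM in Drp1 KO libraries, which overlapped (edgeR adjusted p = 0.752). Cxcl16 lies apart on the same chromosome (chr11:70344517-70352620), and Cxcl2 (chr5:91051730-91053797) and Cxcl10 (chr5:92494497-92496748) are on chromosome 5.

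**Figure D4:**
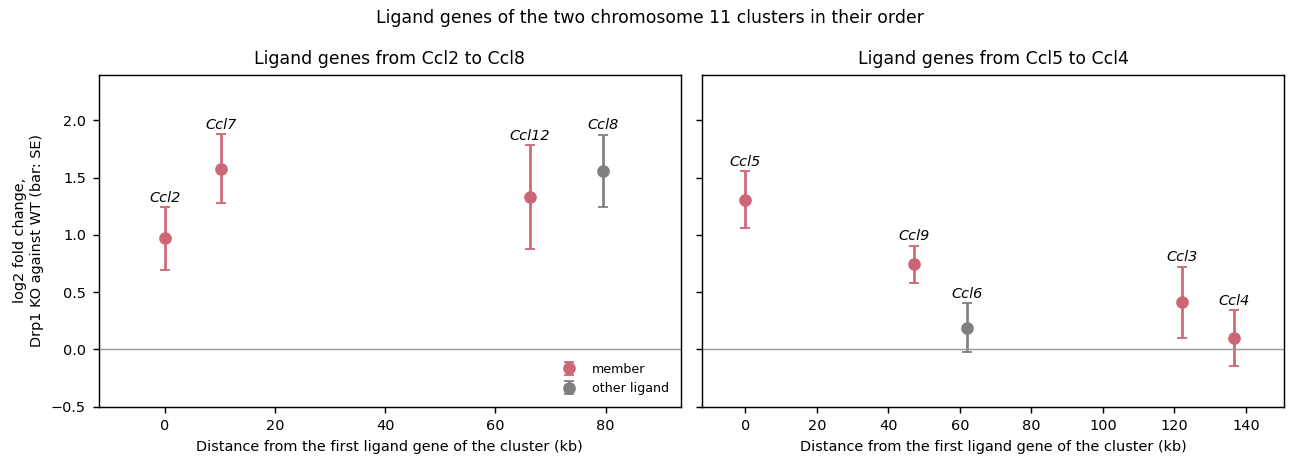
The x axis is the distance in kb from the first ligand gene of each chromosome 11 cluster and the y axis the log2 fold change of Drp1 KO against WT with its SE; red points are members of the list and grey points other ligands. The 4 genes of the left panel lie between 0.97 and 1.58, and those of the right panel between 0.10 and 1.31.

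Of 31 chemokine ligands outside the list, 18 passed the count filter and 2 rose with edgeR, Ccl8 and Cxcl14 (3.36% of all genes changed in either direction). By DESeq2, which gave Cxcl14 no adjusted p, and by limma-voom (adjusted p = 0.0575 for Cxcl14) 1 rose, Ccl8. With each of the 3 tools 0 fell, also at an unadjusted p under 0.05. Their median log2 fold change was 0.12. Cxcl14 was scarce, with 1, 1 and 2 counts in WT and 8, 14 and 11 counts in Drp1 KO libraries. The WT libraries were at or below 3 counts, taken as the floor, and the ratio of the summed counts, each divided by the summed TMM-scaled sizes of the group's libraries, was 7.48 with a 95% interval of 2.66 to 29.1 (exact binomial, counting error only), at an edgeR adjusted p of 0.0464 that rose to between 0.0610 and 0.188 with any library left out. Pf4, the platelet factor that macrophages also express, was at 42.6 to 70.5 CPM in the WT and 44.8 to 74.5 CPM in the Drp1 KO libraries (log2 fold change 0.15 ± 0.21, adjusted p = 0.825).

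**Figure D5:**
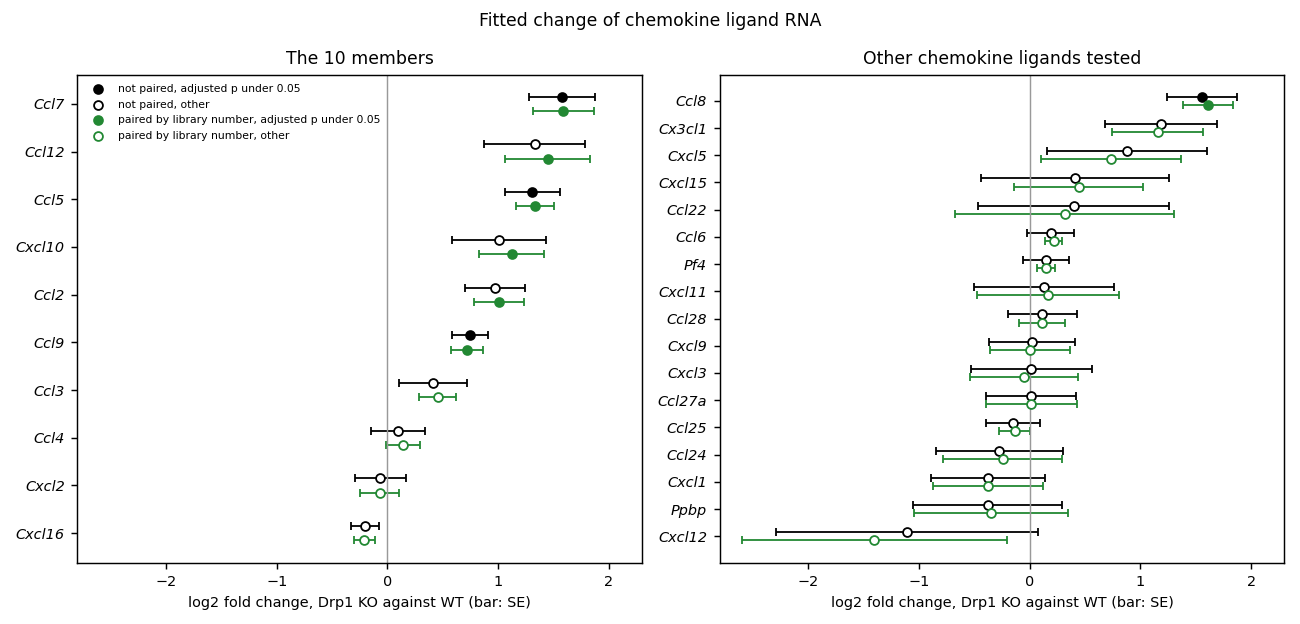
The x axis is the log2 fold change of Drp1 KO against WT with its SE for the 10 ligands (left) and for the other chemokine ligands tested except Cxcl14 (right), without pairing (black) and with libraries paired by number (green); filled symbols had an adjusted p under 0.05. On the left 3 black and 6 green symbols are filled, and on the right only Ccl8.

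Of the receptor genes, Ccr1, which binds Ccl9, Ccl3 and Ccl5, was at 27.0, 33.8 and 45.0 CPM in WT and at 52.3, 52.2 and 75.7 CPM in Drp1 KO libraries. It did not overlap between groups and had 0.77 ± 0.20 (edgeR adjusted p = 0.0699), passing with pairing (adjusted p = 0.000301). Ccr2, the receptor of Ccl2, Ccl7 and Ccl12, was low in these cells at 2.03 to 2.93 CPM in the WT and 2.63 to 4.39 CPM in the Drp1 KO libraries and did not pass (0.33 ± 0.26, adjusted p = 0.614). Ccr3, which binds Ccl5 and Ccl7, had 0.12 ± 0.23 (adjusted p = 0.873).

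Of 5 genes for proteases that release or trim chemokines, 2 fell and 0 rose with edgeR, DESeq2 and limma-voom alike, and at an unadjusted p under 0.05. Over all genes tested, edgeR called 1.06% lower at an adjusted p under 0.05. Adam17, which sheds Cxcl16, was at 296, 324 and 267 CPM in WT and at 217, 198 and 230 CPM in Drp1 KO libraries (log2 fold change -0.46 ± 0.10, edgeR adjusted p = 0.0432). Mmp9, a gelatinase that trims several chemokines, was at 4.48, 7.83 and 3.68 CPM in WT and at 1.09, 1.34 and 2.42 CPM in Drp1 KO libraries (-1.70 ± 0.36, adjusted p = 0.0311). Neither gene overlapped between groups, and in 10.3% of all genes tested every Drp1 KO library was below every WT library. Adam17 lost its call with any library left out (adjusted p from 0.0528 to 0.212), and Mmp9 without WT library 2 (0.15) or without the Drp1 KO library 1 (0.0510) or 2 (0.161). With length-scaled counts neither passed (adjusted p = 0.133 for Adam17 and 0.108 for Mmp9). Adam10, the other Cxcl16 sheddase, had -0.10 ± 0.09 (adjusted p = 0.685), and Mmp12, the macrophage elastase, 0.29 ± 0.24 (adjusted p = 0.638).

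Among 14 transcription factors and feedback regulators of these ligands, not all of which are reported here, Irf7, Stat2, Irf9 and Irf1, which act in interferon signaling, rose with edgeR, as did 2.29% of all genes tested, and 0 fell with edgeR, DESeq2 or limma-voom (2, Jun and Nfkbia, were lower at an unadjusted p under 0.05). Irf7 went from 74.6, 21.2 and 19.3 CPM in WT to 349, 355 and 271 CPM in Drp1 KO libraries (log2 fold change 3.09 ± 0.45, edgeR adjusted p = 0.00554). Stat2 (1.33 ± 0.15, adjusted p = 0.00124) and Irf9 (0.98 ± 0.12, adjusted p = 0.00149) encode subunits of the complex that binds the ISRE. Irf1 had 0.59 ± 0.11 (adjusted p = 0.0214), and unlike the other 3 it lost its call on leaving out WT library 2 (0.142) or 3 (0.125) or the Drp1 KO library 2 (0.0859) or 3 (0.0679), or with length-scaled counts (0.0788). On the NF-kB side, Rela (-0.08 ± 0.14, adjusted p = 0.861) and Nfkb1 (-0.11 ± 0.10, adjusted p = 0.682) did not pass, and Jun had -0.41 ± 0.17 (adjusted p = 0.271), Cebpb -0.07 ± 0.28 (adjusted p = 0.959). With pairing Jun (adjusted p = 0.00358) and Nfkbia (adjusted p = 0.0152), which encodes the NF-kB inhibitor, fell. Rela, Nfkb1, Jun, Nfkbia and the receptor Ccr2 were named after their values were seen.

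The genes outside the list whose profile over the 6 libraries was nearest to each ligand that rose were found by the mean absolute difference in log2 CPM, each gene centred on its own mean, among 12227 genes. Nearest to Ccl5 were Oas1a (0.12), Bcl2a1a and Bcl2a1d (0.14 each), Rhou and Sirpb1b (0.16 each). Nearest to Ccl7 were Sirpb1b (0.06), Slamf9 (0.13), Enpp5, Oas1a and Irgm1 (0.14 each). Oas1a, an interferon-induced oligoadenylate synthetase, and Sirpb1b, a signal regulatory protein, stood near both. Nearest to Ccl9 were Tmsb4x, the pseudogene Gm15725 and Uba7 (0.09 each), Gpr141 and Dtx3l (0.10 each). Bcl2a1a, Bcl2a1d, Oas1a and Sirpb1b have close copies in the genome and Gm15725 is a processed pseudogene, so that their counts may share reads.

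Markers of other cells were low beside those of macrophages, whose 8 markers summed to 13412 to 14811 CPM in the WT and 11992 to 14417 CPM in the Drp1 KO libraries. Of these 8, Fcgr1 rose (1.34 ± 0.11, edgeR adjusted p = 0.000322) and Csf1r (-0.52 ± 0.11, adjusted p = 0.0340) and Mertk (-0.52 ± 0.10, adjusted p = 0.0236) fell, the last 2 with adjusted p-values up to 0.133 and 0.118 with a library left out, and Csf1r had -0.30 (adjusted p = 0.210) with length-scaled counts, while Lyz2 and Cd68 had -0.10 and -0.02 and Adgre1 0.05. Over all genes tested, edgeR called 2.29% higher and 1.06% lower at an adjusted p under 0.05. The neutrophil markers were fitted in the direction of most ligands. The 9 on the list summed to 7.50 to 22.2 CPM in the WT and 21.2 to 49.3 CPM in the Drp1 KO libraries, 7 were tested, all 7 were fitted higher and 0 passed with edgeR or limma-voom (2 by DESeq2, and 4 at an unadjusted p under 0.05), and 4 (S100a8, S100a9, Ngp and Ltf) rose with pairing. Over all genes, 9365 of 18506 were fitted higher and 6.73% rose with pairing. By the study's criteria 4 of these markers were higher, against 7.19% of all genes. S100a9 was at 3.45, 10.2 and 12.1 CPM in WT and at 10.9, 26.2 and 26.4 CPM in Drp1 KO libraries. In WT it was lowest in library 1, which was the highest of its group for 8 of the 10 ligands. In Drp1 KO it was lowest in library 1, which was also the lowest of its group for Ccl9 and Ccl12, and near the same level in library 2, the highest for 6 ligands, and library 3, the lowest for 6. Ly6g, which defines mature neutrophils, was at 0 in all 6 libraries, and the part of these cells in the levels of Ccl9, Ccl2, Ccl5 and the other ligands was not tested. Markers of lymphocytes (5 tested, led by Cd3d, Cd3g and Cd3e), fibroblasts (5, led by Dcn, Col1a2 and Col1a1), dendritic cells (4, led by Zbtb46, Siglech and Xcr1) and megakaryocytes (4, led by Gp1ba, Itga2b and Gp9) gave 0 calls with edgeR, with or without pairing, DESeq2 or limma-voom (at an unadjusted p under 0.05, Zbtb46 was lower with edgeR, and Cd3g too with pairing), and each list summed to at most 8.96 CPM in any library. Of 3 endothelial markers tested Kdr rose (0.94 ± 0.17, adjusted p = 0.0144, and 0.106 or 0.0892 without WT library 2 or 3), and Pecam1 and Cdh5 had 0.25 and 1.85 and did not pass.

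Dnm1l, the gene for DRP1, was at 72.7, 69.9 and 75.1 CPM in WT and at 58.7, 60.7 and 66.3 CPM in Drp1 KO libraries. The groups did not overlap, but the log2 fold change of -0.23 ± 0.09 did not pass (edgeR adjusted p = 0.248), and the gene sum counts reads on exons that the deletion may leave in the RNA. The libraries held 23389488 to 32231206 estimated counts, so that the floor of 3 counts was 0.0917 to 0.136 CPM, and every ligand was above it in every library.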

How the data were processed

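Poly(A) RNA of 3 WT and 3 Drp1 KO BMDM cultures was sequenced with paired ends. The authors quantified reads with kallisto (version 0.46.1 in the submitters' processing notes) on GRCm39 transcripts and deposited, per transcript, estimated counts, TPM, and the length and effective length (other values, used to scale counts in an alternative). Transcripts were matched by identifier to GENCODE (99.4% of 116873), and estimated counts were summed per gene and rounded. From them, edgeR 4.0.16 in R 4.3.3 (TMM, genes with at least 10 counts in total, quasi-likelihood test, no covariate) gave log2 fold changes, with SE as the change divided by the square root of F. CPM uses TMM-scaled library sizes. On simulated counts for this comparison (18153 genes), 84.5% of 200 genes changed 2-fold were recovered, and 13 of 182 calls were false. The 200 genes were drawn only from genes with a higher mean count than Ccl7. The recovered share therefore does not hold for ligands as scarce as Ccl7.

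Labels number the libraries 1 to 3 in both groups. Deviations from the group means correlated at 0.547, 0.223 and 0.374 between libraries of the same number, each over 0.1, and at -0.496 to 0.344 between libraries of different numbers. WT library 2 correlated better with Drp1 KO library 3 than with library 2. A fit with the number as a block was run. This pairing comes from the data, not from a statement of the study. Alternatives were median-of-ratios scaling, library size only, other filters, DESeq2 1.42.0, limma-voom 3.58.1, length-scaled counts, the study's criteria, each library left out and, added later, protein-coding transcripts only. Named genes were the 10 ligands, and of other lists those with an adjusted p under 0.05 and the 3 of highest TPM. The members and lists were chosen with earlier results of these data known. Shared 31-base words were counted in GENCODE transcripts, of which 74.0% have the deposited length. Among the receptors and transcriptional regulators, 2 genes are not reported here.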

Additional observations from a re-analysis of the deposited data

How the results depend on the processing

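The call of 3 ligands became 5 with no filter beyond 1 count, and 6 with the replicate block or by the study's criteria, and ran from 0 to 5 with 1 library left out. It stayed within 1.5 times of 3 under the other scalings and tools. With the replicate block 2212 genes were called in all, against 1065 without the filter, 1155 by DESeq2, 2345 by the study's criteria, 621 as reported, and 181 to 904 with a library left out. For other ligands 2 calls became 1 with filterByExpr, limma-voom, length-scaled counts and DESeq2, which gave Cxcl14 no adjusted p, and 0 to 1 with a library left out. For receptors 1 call became 2 without the filter, by DESeq2 and with the replicate block, 3 by the study's criteria, and 1 to 2 with a library left out. For the proteases 2 calls became 0 with length-scaled counts and 0 to 1 with a library left out. Of 150 refits of single ligands, 125 kept direction and call, 8 gained and 12 lost the call, and 5 reversed: Ccl4 2 times and Cxcl2 3 times, each on leaving out a library, over which Ccl4 ran from -0.12 to 0.40 and Cxcl2 from -0.30 to 0.093. The cause was not tested. Counts of 12 to 125 per library behind Ccl2, Ccl7, Ccl12 and Cxcl10 limit their precision.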
